A study of Caenorhabditis elegans with 4 samples.

Results

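Among the 3811 H3K4me3 peaks listed for replicate 1, 691 (18.1%, exact Clopper-Pearson 95% interval 16.9 to 19.4) had their midpoint inside a LEM-2 subdomain and at least 50 kb from both of its edges. These are called deep peaks here. They made up 60.3% (57.4 to 63.2) of the 1145 peaks with a midpoint inside any subdomain. The other 454 subdomain peaks lay nearer an edge, 2664 peaks lay in the gaps between subdomains, and 2 lay outside every listed region. The same rule applied to replicate 2 found 621 deep peaks of 3487 (17.8%, 16.6 to 19.1), with 416 nearer an edge, 2448 in gaps and 2 outside. The rule used only the position of each peak, so the width, score, spacing and replicate overlap of the peaks were not used to choose them.

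The peaks came from ChIP-seq of mixed-stage embryos of the wild-type *C. elegans* strain N2, in 1 group of 2 H3K4me3 replicates with no mutant, drug or time course. Embryos were cross-linked with 2% formaldehyde, and chromatin was precipitated with an H3K4me3 antibody from Wako. Each replicate has an input library, whose values were not analysed here. The series calls the replicates biological, but no source used here says whether they came from separate cultures, so the spread between them may be technical. The lists hold no read counts, so their depth is not known from the values; the study's methods describe replicate 1 as sequenced more deeply than replicate 2. Mixed-stage embryos hold many cell types, and a site marked strongly in few cells cannot be told apart from a site marked weakly in many.

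H3K4me3, histone H3 trimethylated at lysine 4, is laid down by COMPASS-type methyltransferase complexes and sits at the 5′ ends of transcribed genes, which makes it a common landmark of active promoters. LEM-2 is an integral protein of the inner nuclear membrane that binds the nuclear lamina, and DNA recovered with it marks chromatin close to the nuclear periphery. In *C. elegans* this contact is concentrated on the arms of the autosomes, where it is broken into LEM-2 subdomains separated by gaps. Lamina contact is usually found with low transcription. In a mixture of cells, H3K4me3 and LEM-2 at the same position need not come from the same cells.

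Only subdomains longer than 100 kb can hold a deep peak. Of the 360 subdomains in the study's list, whose median size was 57.8 kb, 123 (34.2%) were that long. They provided 27.6 Mb of sequence at least 50 kb from both edges, which is 55.5% of all subdomain bases. Deep peaks occurred at 25.0 per Mb of this sequence in replicate 1 and 22.5 in replicate 2 (23.8 ± 1.79, SD, n = 2). Gaps held 52.7 and 48.5 peaks per Mb (50.6 ± 3.02, SD, n = 2). The deep density was therefore 0.475 of the gap density in replicate 1 (95% interval 0.436 to 0.516) and 0.464 in replicate 2 (0.425 to 0.507), with a mean of 0.470 ± 0.00739 (SD, n = 2). Most gap sequence was far from chromosome ends: 46.2 of its 50.5 Mb lay beyond 3 Mb, against 6.55 of the 27.6 Mb of deep sequence. Without the gaps that the study classes as extra large and places in chromosome centres, the ratio was 0.412 in replicate 1. Intervals given here cover counting error and treat peaks as independent, which neighbouring peaks need not be. Measured as sequence under peaks, 6.73% of deep bases and 16.2% of gap bases were covered in replicate 1, against 5.60% and 13.0% in replicate 2.

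Compared with subdomain sequence nearer an edge, deep sequence held more peaks per Mb when all subdomains were pooled. Near-edge sequence held 20.5 peaks per Mb in replicate 1 and 18.8 in replicate 2, which gave density ratios of 1.22 (1.08 to 1.38) and 1.20 (1.05 to 1.36). The ratio was close to 1, with intervals that held 1, when the comparison was kept within the 123 subdomains that have deep sequence. Their outer 50 kb on each side held 296 peaks (24.1 per Mb) in replicate 1 and 277 (22.5 per Mb) in replicate 2, and the ratio was 1.04 (0.907 to 1.20) and 0.999 (0.866 to 1.16). Weighted within chromosomes it was 0.990 and 0.959. Subdomains of 100 kb or less, which have only near-edge sequence, held 158 peaks at 16.1 per Mb in replicate 1 and 139 peaks at 14.2 per Mb in replicate 2.

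The profile by distance shows where the near-edge peaks sat. In the subdomains over 100 kb, the outermost 5 kb held 51.2 peaks per Mb in each replicate, close to the gap density. The density was 22.0 per Mb at 5 to 10 kb from the edge in replicate 1 (17.9 in replicate 2), 22.5 at 10 to 25 kb (21.1) and 20.0 at 25 to 50 kb (18.5). Deep sequence was level: 23.8 per Mb at 50 to 100 kb (21.7 in replicate 2), 25.6 at 100 to 200 kb (22.8) and 25.8 beyond 200 kb (23.1). The intervals of these 3 bins overlapped in both replicates, but the bins pool subdomains of different size, and the last is reached only by the 28 subdomains over 400 kb. Within those 28, deep sequence held 26.4 peaks per Mb at 50 to 100 kb (24.3 in replicate 2), 28.8 at 100 to 200 kb (26.3) and 25.8 beyond 200 kb (23.1), again with overlapping intervals. Their outermost 5 kb held 64.3 per Mb (57.1) and the zone from 5 to 50 kb held 25.8 (24.6). With the outermost 5 kb left out, all subdomains over 100 kb together had 21.0 peaks per Mb nearer the edge in replicate 1 and 19.3 in replicate 2. Their ratio of deep to near-edge density was then 1.19 (1.02 to 1.39) and 1.16 (0.995 to 1.37).

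**Figure D1:**
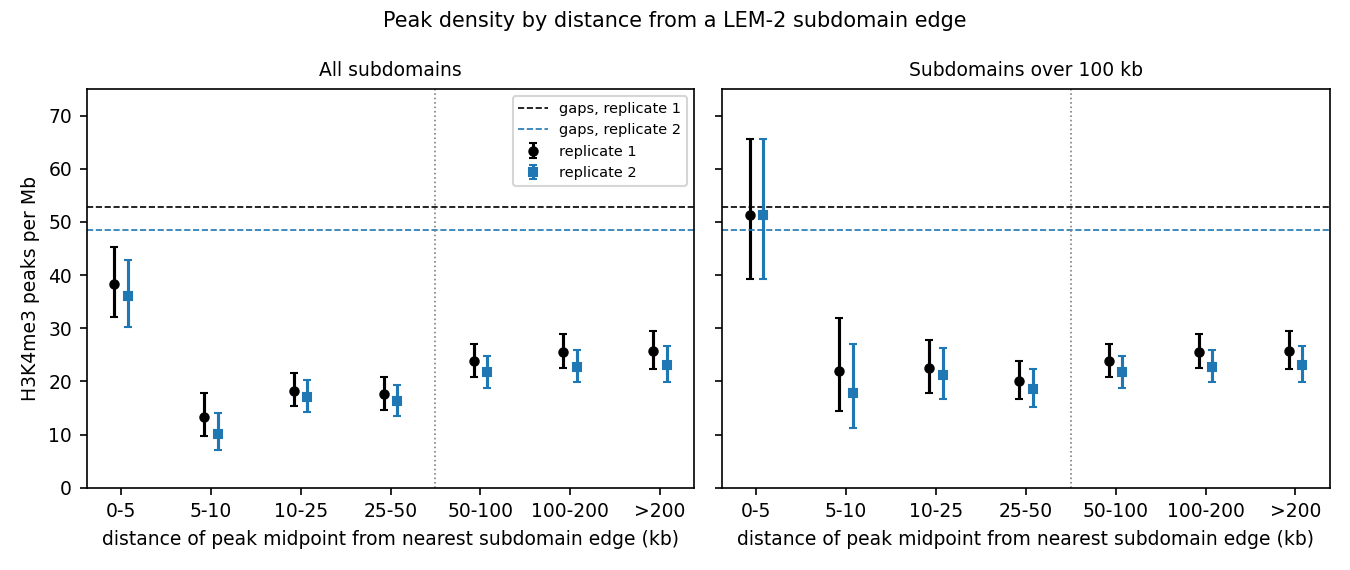
H3K4me3 peaks per Mb (vertical axis) by distance of the peak midpoint from the nearest subdomain edge in kb (horizontal axis), for all subdomains (left) and those over 100 kb (right), with exact Poisson 95% intervals as bars and the gap density of each replicate as a dashed line. Right of the dotted line at 50 kb are the deep peaks, which stay between 21.7 and 25.8 per Mb in both replicates, below both gap lines.

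All 6 chromosomes held deep peaks, but at very different densities. In replicate 1 chromosome III had 183 deep peaks (36.9 per Mb, exact Poisson 95% interval 31.8 to 42.7) and chromosome I had 186 (34.9 per Mb, 30.1 to 40.3). Chromosome II had 116 (29.7 per Mb, 24.6 to 35.7) and chromosome IV had 121 (20.2 per Mb, 16.8 to 24.2). Chromosome X had 8, at 15.2 per Mb (6.55 to 29.9), and chromosome V had 77, at 11.2 per Mb (8.80 to 13.9). Intervals of neighbours in this order overlapped, except that II lay above IV, and IV lay above V when X, with its wide interval, was passed over. Replicate 2 gave 31.7 per Mb on III, 31.6 on I, 29.0 on II, 19.0 on X, 17.9 on IV and 9.56 on V.

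Chromosome V, the richest in deep sequence, had 25.0% of all deep bases and 11.1% of the deep peaks of replicate 1. Its gaps were also sparser than those of the other autosomes, at 46.0 peaks per Mb in replicate 1 and 42.6 in replicate 2. The deep density on V was 0.243 of its gap density in replicate 1 and 0.224 in replicate 2, the lowest ratio of any chromosome in each. The highest ratio was 0.547 on III in replicate 1 and 0.564 on II in replicate 2. The interval of the ratio lay below 1 on 6 of 6 chromosomes in both replicates. The outer 50 kb of the same subdomains followed the chromosome order loosely, from 12.1 per Mb on V to 38.6 on I in replicate 1.

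**Figure D2:**
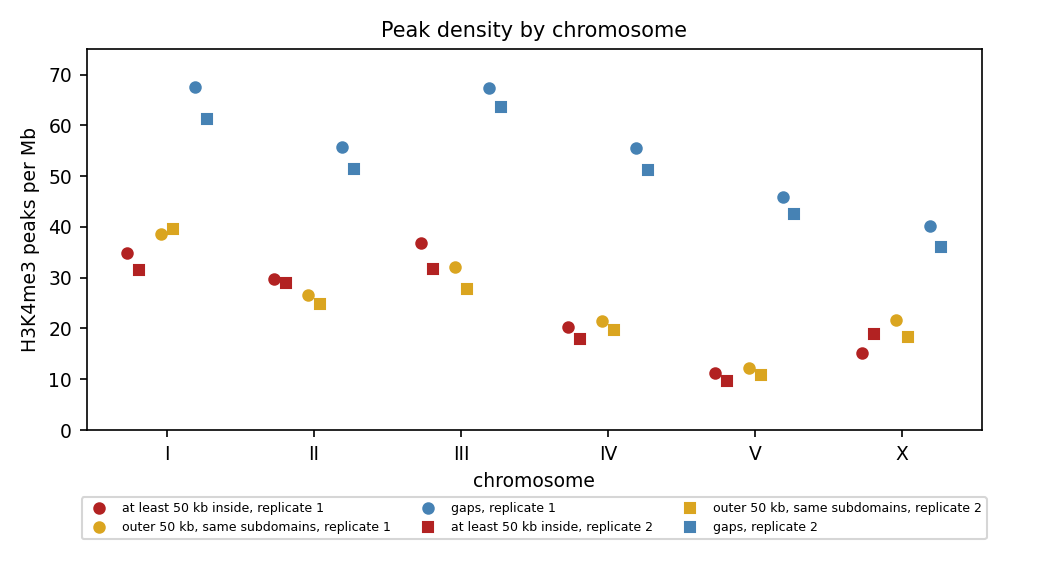
Peaks per Mb (vertical axis) on each chromosome (horizontal axis) for deep sequence (red), the outer 50 kb of the same subdomains (yellow) and gaps (blue), with circles for replicate 1 and squares for replicate 2. Deep sequence lies below gaps on all 6 chromosomes, and chromosome V is lowest, at 11.2 and 9.56 deep peaks per Mb.

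All deep sequence lies on chromosome arms in the study's list, whose arm limits were drawn from the LEM-2 pattern itself, so no deep peak could fall in a chromosome centre. Left arms held 357 (51.7%) and right arms 334 in replicate 1, or 26.2 and 23.9 per Mb of deep sequence, and 331 and 290 in replicate 2, or 24.3 and 20.8 per Mb. Chromosome IV had the widest contrast, with 25.9 per Mb on the left and 15.3 on the right in replicate 1, while replicate 2 had 23.8 and 12.8. From the nearer chromosome end, the median deep peak lay 1533 kb away, with a range of 50.9 to 7026 kb.

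Pooled over chromosomes, deep peaks were densest close to the chromosome ends. There were 32.2 per Mb (28.3 to 36.4) in the terminal 1 Mb in replicate 1, 25.9 at 1 to 2 Mb, 22.8 at 2 to 3 Mb and 17.7 (14.6 to 21.3) beyond 3 Mb. Replicate 2 had 28.7, 24.4, 21.1 and 14.4 per Mb. Gap sequence over the same steps held 53.9, 49.0, 55.7 and 52.7 peaks per Mb in replicate 1. In replicate 2 it held 53.9, 42.0, 52.6 and 48.4. The pooled gap steps mix chromosomes differently from the deep steps. Chromosome X supplied 0.787 of the 0.890 Mb of gap sequence in the terminal 1 Mb, but 0.372 of 7.90 Mb of deep sequence. It also supplied 1.15 of 1.43 Mb of gap sequence at 1 to 2 Mb and 1.62 of 1.99 Mb at 2 to 3 Mb. On every chromosome gap density was higher in the terminal 1 Mb than beyond 3 Mb in both replicates, though each autosome had at most 5 gap peaks there. A steady decline of deep density was not shared by all chromosomes. On chromosome V the density was 22.0 per Mb (15.5 to 30.3), 15.5, 9.83 and 4.58 (2.50 to 7.68) over the same steps in replicate 1, and 20.2, 11.9, 7.56 and 3.93 in replicate 2. On chromosome I it was 36.0, 36.7, 28.4 and 37.3 per Mb in replicate 1, with no steady fall. Replicate 2 had 33.0, 32.9, 27.5 and 31.5 there. Chromosome III had 45.1, 29.5, 33.5 and 42.2 (36.1, 27.1, 31.1 and 31.1 in replicate 2). Chromosome II had 37.0, 27.5, 22.2 and 27.4 (34.1, 28.9, 22.2 and 24.3). Chromosome IV had 23.1, 18.6, 18.4 and 21.0 (21.5, 18.0, 16.4 and 16.2). On II, III, IV and V the terminal 1 Mb was thus the densest step in both replicates. On II, III and IV, however, its interval overlapped that of every other step in both replicates. Chromosome X had deep sequence only within 2 Mb of an end, with 21.5 per Mb in the terminal 1 Mb and 0 at 1 to 2 Mb (24.2 and 6.42 in replicate 2). Beyond 3 Mb, chromosome V supplied 3.06 Mb of the 6.55 Mb of deep sequence, so the pooled decline mixed position with chromosome.

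The 691 deep peaks fell in 88 of the 123 long subdomains (71.5%, 62.7 to 79.3), and the 621 of replicate 2 fell in 87. Both replicates had deep peaks in 85 subdomains and neither had any in 33, while 3 held them only in replicate 1 and 2 only in replicate 2. The number per subdomain was the same in both replicates in 69, higher in replicate 1 in 44 and higher in replicate 2 in 10. Across the 123 subdomains the counts of the replicates had a Pearson correlation of 0.985, which subdomain size contributes to, and the densities had a Spearman correlation of 0.890. Subdomains are not independent samples, and these correlations describe the lists only.

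Subdomains with a deep peak were longer than those without. Their median size was 315.7 kb in replicate 1, from 107.2 to 1323 kb, against 131.2 kb for the 35 without, the largest of which was 310.6 kb. More deep sequence gives more places for a peak, and density was also higher in the longer classes. Subdomains of 100 to 150 kb had 14.3 deep peaks per Mb in each replicate (11 peaks, 7.16 to 25.7), and 8 of 33 held one in replicate 1. For 150 to 200 kb the density was 13.2 in replicate 1 (11 peaks, 6.61 to 23.7) and 9.63 in replicate 2, with 5 of 11 holding one in replicate 1. Subdomains of 200 to 400 kb had 23.7 and 21.0 per Mb, and 47 of 51 held a deep peak in replicate 1. For 400 to 800 kb it was 26.8 and 24.0, and for the 6 longest 27.1 and 25.0, and every subdomain over 400 kb held a deep peak in both replicates. The outer 50 kb of the same subdomains followed size as well, with 17.6, 17.3, 26.7 and 32.7 peaks per Mb in the classes up to 800 kb in replicate 1, and 15.8, 19.1, 24.7 and 31.4 in replicate 2. Deep sequence was thus less dense than the outer 50 kb in 4 of 5 size classes in both replicates, and denser only in the 6 longest subdomains, whose outer 50 kb held 18.3 per Mb (11 peaks) and 15.0 (9 peaks). The interval of the deep to outer ratio held 1 in all 5 classes in both replicates, and at 400 to 800 kb it was 0.818 (0.629 to 1.07) and 0.765 (0.584 to 1.01). The Spearman correlation of deep density with subdomain size was 0.385 in replicate 1 and 0.442 in replicate 2 (n = 123 subdomains), given as a description.

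Deep peaks were spread over many subdomains, with a heavy upper end. Among the 88 that held any in replicate 1 the median was 5, and 18 held exactly 1. The 22 with at least 10 held 443 deep peaks (64.1%) in 43.7% of the deep bases. The 5 fullest held 171 (24.7%) in 17.6% of the deep bases, and the same 5 held 150 (24.2%) in replicate 2. The fullest was chrIII:2100251-3390241 (1290 kb), with 42 deep peaks in replicate 1 and 36 in replicate 2. Next came chrI:541589-1833001 (1291 kb, 33 and 32), chrI:14074039-14858733 (784.7 kb, 33 and 24), chrIV:658203-1824501 (1166 kb, 32 and 32) and chrIII:351139-1163101 (812.0 kb, 31 and 26). Coordinates are given as ce4, the build of the subdomain list, since none is stated with the peak lists.

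Long subdomains differed widely in the number of deep peaks they held. The longest subdomain of all, chrV:16402719-17726158 (1323 kb), held 6 deep peaks in each replicate, and chrIV:15649201-16392367 (743.2 kb) held 1 in each. These were picked out after their values were seen. On the same chromosome arm as the first, nearer the end, chrV:20001851-20919338 (917.5 kb) held 24 and 23. The longest subdomains with no deep peak in replicate 1 were chrV:16040701-16351307 (310.6 kb), chrIV:4797426-5075718 (278.3 kb) and chrV:3194180-3444000 (249.8 kb). Replicate 2 had none in the first and second of these and 1 in the third.

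**Figure D3:**
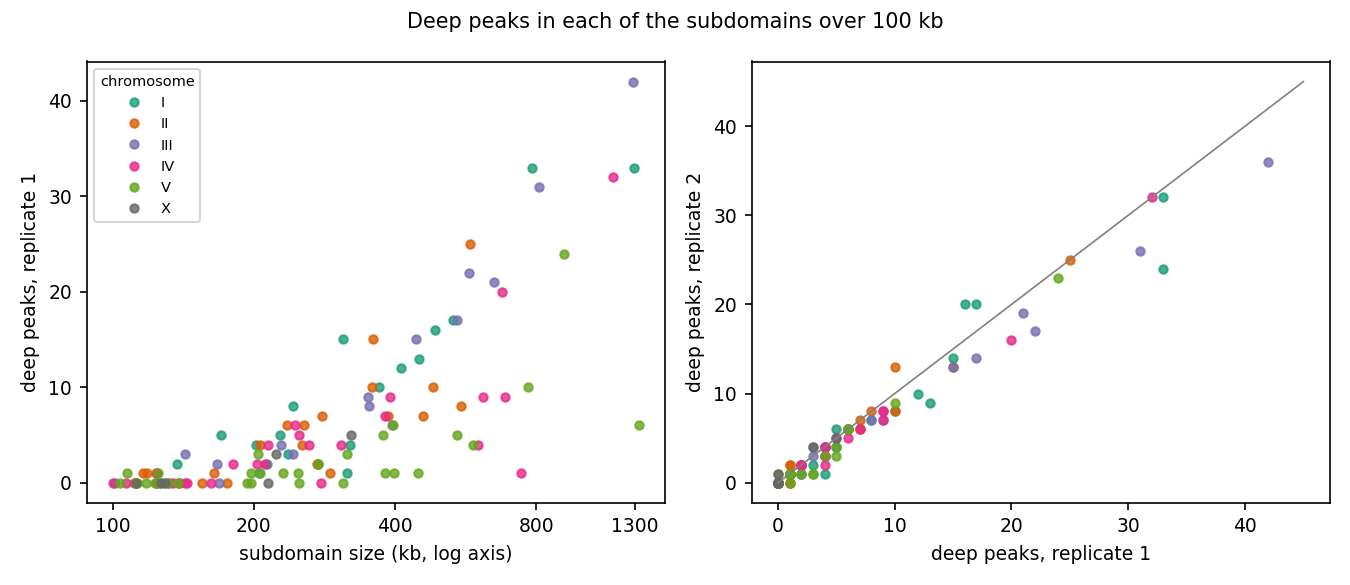
Left, number of deep peaks in replicate 1 (vertical axis) against subdomain size in kb (log axis) for each of the 123 subdomains over 100 kb, coloured by chromosome; right, deep peaks in replicate 2 (vertical axis) against replicate 1 (horizontal axis) for the same subdomains, with the line of equal counts. The fullest subdomain has 42 and 36 deep peaks, while the longest, on chromosome V, has 6 in each replicate.

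Within subdomains, deep peaks stood farther apart than gap peaks and about as far apart as near-edge peaks. The median distance from a deep peak's midpoint to that of the nearest other peak of the list was 11.1 kb in replicate 1 and 11.6 kb in replicate 2. For near-edge peaks it was 12.1 and 11.7 kb, and for gap peaks 7.88 and 8.26 kb. In replicate 1, 314 deep peaks (45.4%, 41.7 to 49.2) had another midpoint within 10 kb, against 55.7% of all peaks in the list, 43.6% of near-edge peaks and 60.4% of gap peaks. In replicate 2 the share was 42.7%, against 53.9% of all peaks, 46.9% nearer an edge and 57.9% in gaps. Deep sequence also held fewer peaks per Mb than gaps. Spacing was not compared at matched density, and no test of clustering was made.

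Most deep peaks were not part of a run, a run being a series of deep peaks whose neighbouring midpoints are within 10 kb. In replicate 1, 382 (55.3%) stood alone, 309 (44.7%) were in 129 runs of at least 2, and 121 (17.5%) were in 35 runs of at least 3. Replicate 2 had 362 alone (58.3%), 259 in 109 runs of at least 2 (41.7%) and 101 in 30 runs of at least 3 (16.3%). No run exceeded 5 peaks in either replicate. The longest were chrIII:633653-659633, with 5 peaks in replicate 1, a median score of 121 and 3 peaks in replicate 2, and chrIII:13291721-13314989, with 5 in each replicate and a median score of 1685. Of 12 runs with 4 peaks in replicate 1, that with the longest span was chrIII:843573-871950, which also had 4 in replicate 2.

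Windows of 50 kb were counted over all chromosomes. Of 492 deep windows, 33.7% held no peak in replicate 1 and 6.50% held at least 4, with a maximum of 6. Replicate 2 had 37.4% empty and 5.69% with at least 4. Of 913 gap windows, 7.45% were empty and 24.3% held at least 4 in replicate 1. Chromosome X held 275 of the gap windows and 8 of the deep windows, so these shares pool different mixes of chromosomes. Taken by chromosome, the empty share was higher in deep than in gap windows on every chromosome in both replicates. The variance of the count over its mean was 1.25 in deep windows and 0.897 in gap windows in replicate 1, and 1.27 and 1.01 in replicate 2. These windows pool chromosomes of unlike density, and taken within chromosomes the ratio was 1.07 in deep windows and 0.784 in gap windows in replicate 1, and 1.09 and 0.898 in replicate 2. The mean count was also lower, at 1.30 in deep and 2.51 in gap windows in replicate 1, and shares of empty windows were not compared at matched counts. Chromosome V had the highest ratio of any chromosome in both replicates, 1.54 and 1.61, with 64.2% and 68.3% of its 120 deep windows empty.

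The longest stretches of deep sequence without a peak lay on chromosomes V and IV. On chromosome V, 549 kb of deep sequence in the longest subdomain separated the neighbouring peak midpoints at chrV:16965569-17514829 in replicate 1, and replicate 2 had midpoints at chrV:16965614-17514706, also 549 kb apart. On chromosome IV, chrIV:15699201-16169610 (470 kb) preceded the single deep peak of the 743.2 kb subdomain, and chrIV:15093586-15472829 (379 kb) was the next longest in replicate 1. In replicate 2 chrV:18087110-18486155 (399 kb) came before it. Of the 3 most isolated deep peaks, 2 bordered these stretches. The deep peak at chrIV:16167793-16171427 had its nearest other peak 212.3 kb away and scored 1314 in replicate 1 and 748 for its replicate 2 counterpart. The deep peak at chrV:2876681-2878219 was 182.8 kb from its nearest peak (scores 625 and 127), and that at chrV:16964441-16966697 was 164.9 kb away (3100 and 1087). All 3 were overlapped by a replicate 2 peak.

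**Figure D4:**
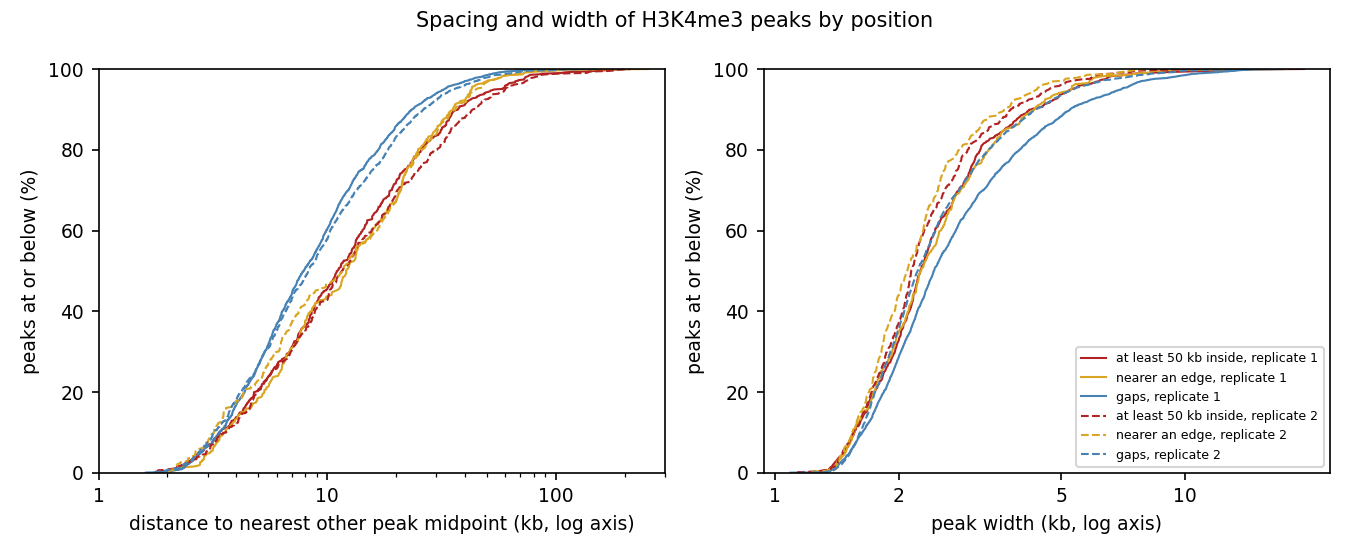
Cumulative percentage of peaks (vertical axes) by distance to the nearest other peak midpoint in kb (left, log axis) and by peak width in kb (right, log axis), for deep peaks (red), subdomain peaks nearer an edge (yellow) and gap peaks (blue), with solid lines for replicate 1 and dashed lines for replicate 2. Gap peaks lie closer together than deep peaks, with medians of 7.88 against 11.1 kb in replicate 1, and 11.7% of gap peaks against 6.37% of deep peaks are 5 kb wide or more.

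The median deep peak was about as wide as the median near-edge peak and narrower than the median gap peak in both replicates. Deep peaks had a median width of 2261 bp in replicate 1 and 2148 bp in replicate 2, near-edge peaks of 2270 and 2101 bp, and gap peaks of 2439 and 2227 bp. The deep to near-edge difference turned from negative to positive between replicates. At least 5 kb of width was reached by 44 deep peaks (6.37%, 4.66 to 8.45) in replicate 1, against 10.1% of the whole list, 11.7% (10.6 to 13.0) of gap peaks and 5.95% (3.96 to 8.54) nearer an edge. In replicate 2 it was 25 deep peaks (4.03%, 2.62 to 5.89), against 5.56% of the list, 6.37% (5.44 to 7.41) in gaps and 3.13% nearer an edge, and the deep and gap intervals overlapped. Among peaks scoring at least 3100, the median width was 2806 bp for deep peaks and 3345 bp for gap peaks in replicate 1, and 3608 and 4373 bp in replicate 2. The widest deep peaks were all on chromosome I. That at chrI:2826607-2846157 (19551 bp) was overlapped by 4 separate replicate 2 peaks, that at chrI:1690562-1703321 (12760 bp) by 2, and the counterpart of chrI:11196724-11209103 (12380 bp) was 10915 bp wide.

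Each peak carries the peak caller's score, a p-value on a negative log10 scale multiplied by 10, and these scores pile up at 3100 and above. Its median was 1894 for deep peaks, 1282 for near-edge peaks and 1609 for gap peaks in replicate 1, and 744, 454 and 612 in replicate 2. At least 3100 was reached by 263 deep peaks (38.1%, 34.4 to 41.8) in replicate 1, against 33.4% of the whole list, 29.1% (24.9 to 33.5) nearer an edge and 32.9% (31.1 to 34.7) in gaps. In replicate 2 it was 54 deep peaks (8.70%, 6.60 to 11.2), against 7.31% of the list. The median score of deep peaks was above that of near-edge peaks on 6 of 6 chromosomes in both replicates, and above that of gap peaks on 4 of 6. The outer 50 kb of the same subdomains scored a median of 1612 in replicate 1 and 550 in replicate 2. Against that outer sequence alone, deep peaks had the higher median on 5 of 6 chromosomes in both replicates. Peaks in subdomains of 100 kb or less had medians of 818 and 338. Scores depend on depth and width and were compared only within a replicate.

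Deep peaks were found again in the other replicate about as often as near-edge peaks. Their share was slightly below that of gap peaks in both directions, without passing 0.05 after adjustment. Of 691 deep peaks, 587 (84.9%, 82.1 to 87.5) were overlapped by a replicate 2 peak by at least 1 bp, against 86.2% of the whole list. The share was 85.0% for near-edge peaks, a difference of -0.0727 percentage points (-4.21 to 4.27), and 86.7% for gap peaks, a difference of -1.72 points (-4.84 to 1.09). In the reverse direction 599 of 621 deep peaks of replicate 2 (96.5%) were overlapped by replicate 1, against 97.3% of that list, 95.7% nearer an edge (difference 0.784 points, -1.58 to 3.47) and 97.8% in gaps (-1.38 points, -3.21 to -0.0174). Of the 4 difference intervals, only this last one excluded 0. None of the 4 two-sided Fisher's exact tests passed 0.05 after Benjamini-Hochberg adjustment, with exact p values of 1, 0.238, 0.516 and 0.0575 and adjusted values of 1, 0.477, 0.688 and 0.230. With the gaps that the study classes as extra large left out, the replicate 1 difference from gap peaks was -4.32 points (Fisher's exact p = 0.0154, adjusted 0.0615). Peaks within a list are sites and not replicates, so these tests compare the 2 lists only.

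Overlap depended on score in every class. All deep peaks of replicate 1 scoring above the list median were overlapped, as were all near-edge and gap peaks above it. Between the lower quartile and the median the shares were 97.9%, 97.5% and 97.1% for deep, near-edge and gap peaks. Below the lower quartile they were 41.3% (33.8 to 49.0), 51.5% (42.7 to 60.2) and 48.2% (44.3 to 52.2), and the deep and near-edge intervals overlapped.

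**Figure D5:**
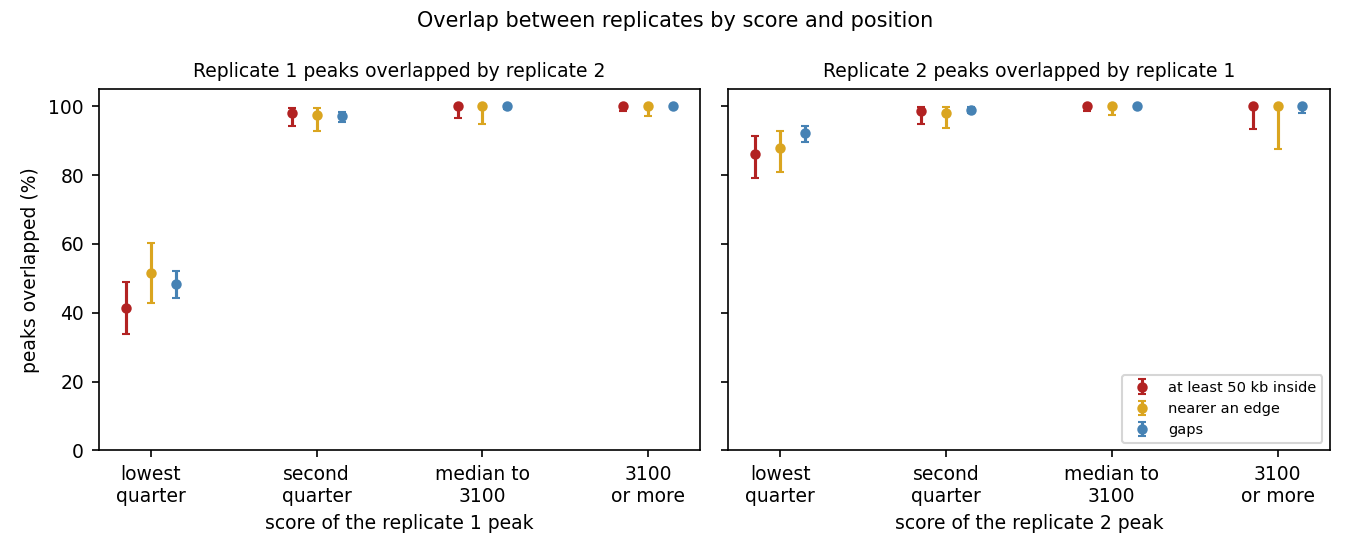
Percentage of peaks overlapped by the other replicate (vertical axes) in 4 score classes of the list (horizontal axes), for deep peaks (red), subdomain peaks nearer an edge (yellow) and gap peaks (blue), with exact Clopper-Pearson 95% intervals. In replicate 1 (left) the lowest-scoring class is at 41.3% for deep peaks, and classes above the median are at 100% in all positions.

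The matched peaks were placed closely alike. For the 587 overlapped deep peaks, the median distance between the midpoints of a peak and its counterpart was 50.0 bp. All had a counterpart that was itself a deep peak of replicate 2, which the overlap requirement made nearly certain. The median width was 2356 bp in replicate 1 and 2181 bp for the counterpart, and 494 of the 587 (84.2%) were wider in replicate 1. The 104 deep peaks without a counterpart had a median score of 108, against 2623 for those with one, and a median width of 1633 bp. They were scattered over 50 subdomains, at a median of 126.9 kb from the nearest edge against 137.7 kb for those with a counterpart. The highest-scoring were at chrIII:11906663-11910089 (score 698), chrIV:3649455-3651675 (412) and chrIV:13415079-13417140 (395).

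The median deep peak lay 137.0 kb from the nearest edge, with an interquartile range of 89.5 to 226.9 kb. The most deeply buried was at chrI:1174315-1177062, 634.1 kb from an edge, with a score of 3100 in replicate 1 and 929 for its counterpart. Then came chrIII:2724288-2726141 (625.0 kb, 642 and 158) and chrIII:2767267-2769725 (621.7 kb, 3100 and 2184). At the threshold itself, the deep peaks closest to it were at chrIII:10867270-10870341 (50.4 kb from the edge, score 3100), chrIV:191202-193594 (50.8 kb, 3100) and chrIV:49539-52267 (50.9 kb, 398). Those just short of it were at chrI:2341789-2343441 (49.9 kb, 262), chrIV:17330317-17332419 (49.4 kb, 2429) and chrIV:6205585-6207349 (49.4 kb, 902). All 6 were overlapped by replicate 2.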

How the data were processed

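H3K4me3 ChIP and input were sequenced in 4 libraries, and peak lists of the 2 ChIP replicates were analysed. The authors ran MACS on each replicate (p-value threshold 1e-05), and the deposited score is the negative log10 of a peak's p-value multiplied by 10, with a ceiling slightly above 3100. The submitters' processing notes name BWA, whereas the paper describes another aligner for its own coverage profiles, and neither the MACS version nor the genome build of the lists is given in the sources used here. LEM-2 subdomains, gaps and chromosome arms came from the study's supplementary lists, in ce4. Aligner and threshold set which weak sites are listed, and the shallower replicate lists fewer.

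Peaks were placed by midpoint and starts were counted from 1. Densities are peaks per Mb of the bases that could hold such a midpoint. Shares carry exact Clopper-Pearson and densities exact Poisson 95% intervals. Density ratios carry exact conditional 95% intervals, derived from the Clopper-Pearson limits of the deep share of the compared peaks. Overlap needed at least 1 bp and was tested by two-sided Fisher's exact tests with Benjamini-Hochberg adjustment over 4 tests. Scripts were tested on simulated data. Software was scipy 1.17.1, numpy 2.4.6 and pandas 2.3.3 under Python 3.11.15, and plots used matplotlib 3.10.9. The regions and peaks named were the 5 fullest subdomains, the 3 longest without a deep peak, and the 3 deep peaks, runs or threshold neighbours at each extreme of edge distance, width, isolation, run length and unmatched score. The peaks and rules were chosen with earlier results of these data known. Sequences and genes were not analysed here. Alternatives were replicate 2 alone, depths of 25 and 100 kb, chromosome ends not counted as edges, whole peaks inside, merged peaks, shared peaks, autosomes, peaks above the median score, long subdomains, extra large gaps left out, a reciprocal overlap of 50% and a 5 kb neighbour distance. Further settings for the density ratio, within chromosomes and without the outermost 5 kb, were chosen after seeing the data, as were the counts within subdomains over 400 kb and the window ratios within chromosomes.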

Additional observations from a re-analysis of the deposited data

How the results depend on the processing

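Over 11 results, 110 alternative values were computed: 64 were classed as unchanged, 40 as moved and 6 as reversed. Those classed as reversed were overlap differences that changed sign. Unchanged meant within the replicate spread for ratios, medians and shares, and on the same side of 0.05 without a change of sign for overlap. Counts were classed more loosely, and some called unchanged lay beyond their replicate spread. In 10 of the 110 the value crossed to the other side of no difference (0, or a ratio of 1): 6 overlap differences, 2 width differences and 1 nearest-peak distance, all against near-edge peaks, and 1 density ratio. In 4 it was exactly 0, among them the overlap differences above the median score, where 100% of peaks were overlapped in every class. The deep-to-near-edge density ratio (1.22) was 1.20 without replicate 1, 1.06 at 25 kb from the edges, 1.19 at 100 kb, 1.27 with chromosome ends not counted as edges, 1.20 with whole peaks inside, 1.19 on autosomes, 1.49 for peaks above the median score and 1.04 within subdomains over 100 kb. Chosen after seeing the data, it was 0.990 within chromosomes and 1.19 without the outermost 5 kb. Since the SD of this ratio over 2 replicates was 0.0166, small shifts count as moved. The deep-to-gap density ratio (0.475) was 0.464 without replicate 1, 0.444 at 25 kb, 0.487 at 100 kb, 0.487 with merged peaks, 0.465 for shared peaks, 0.436 on autosomes, 0.513 above the median score and 0.412 without extra large gaps, below 1 in each. The overlap difference between deep and near-edge peaks changed sign to 0.784 points without replicate 1, 2.14 at 25 kb, 0.308 at 100 kb, 0.839 with chromosome ends not counted as edges, 0.964 with merged peaks and 0.469 at a reciprocal overlap of 50%, none past 0.05. The median width difference from near-edge peaks (-9.0 bp) was 16.5 bp at 100 kb. It was 47.0 bp against near-edge peaks and -79.0 bp against gaps without replicate 1, and -109.0 and -388.0 bp above the median score; against gaps it was -263.0 bp without extra large gaps. The difference in median nearest-peak distance from near-edge peaks was -99.25 bp without replicate 1, 2314 bp at 25 kb and -1900 bp above the median score. From gap peaks it was 3348 bp without replicate 1, 4462 bp at 25 kb, 3110 bp both with chromosome ends not counted as edges and with whole peaks inside, 3350 bp for shared peaks, 3525 bp on autosomes and 2867 bp without extra large gaps. The share of deep peaks with a neighbour within 10 kb was 42.7% without replicate 1, 42.7% at 25 kb, 38.1% merged, 39.9% for shared peaks, 25.5% above the median score and 20.4% within 5 kb. The number of deep peaks was 825 at 25 kb, 465 at 100 kb and 373 above the median score, against 691 in the main setting (replicate SD 49.5). Only the last was classed as moved. Subdomains holding deep peaks numbered 108, 59 and 72 in these settings, against 88 (replicate SD 0.707), and none of these was classed as moved. Where the cause of a shift is not the setting's own construction, the cause was not tested.

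No paired analysis was possible because only 1 group has values, and the inputs with the same replicate numbers were not analysed here. With 2 replicates the spread rests on a single difference. Peak lists carry no depth, so a site absent from the shallower list and a site under its threshold cannot be told apart. Peak coordinates are read as ce4, which the lists do not state.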
